A study of Rattus norvegicus with 63 samples.

Results

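The BCL2 family and its partners were represented on the protein arrays by 5 analytes, BAX, BCL2L1, MCL1, BIK and AVEN, out of 158. They were taken by name, as every analyte that carried one of these symbols, although the symbols were chosen with earlier results of these data known. None of the 5 was a modified form. Each was measured in the livers of 63 male Wistar Hanover rats, 8 to 10 weeks old when assigned to dose groups, as a relative fluorescence intensity (RFI) on a reverse-phase protein array, on which spots of liver lysate are probed with an antibody against 1 protein. All 315 RFI values of the 5 analytes were above 0. RFI depends on the antibody, so a level of 1 protein was set only against the same protein in other animals.

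Outer mitochondrial membrane permeability is the switch that the BCL2 family controls. BAX is an effector that forms pores in this membrane when activated. BCL2L1, the gene of BCL-XL, and MCL1 are survival proteins that hold BAX and its activators in check, and the hepatocyte is known to depend on both. BIK is a BH3-only protein, which binds and blocks survival proteins, and AVEN is an inhibitor of caspase activation that binds BCL-XL. The study contrasted genotoxic with non-genotoxic liver carcinogens.

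All 63 animals were dosed by gavage and fell into 21 groups of 3, with 15 compounds and 6 control sets that received vehicle only. Methylcellulose set 1, given for 14 d, was the labelled control of acetamide (AA, 3000 mg/kg/d, 14 d), dehydroepiandrosterone (DHEA, 600 mg/kg/d, 14 d), methylcarbamate (Mcarb, 400 mg/kg/d, 14 d), methapyrilene (MPy, 60 mg/kg/d, 7 d), thioacetamide (TAA, 19.2 mg/kg/d, 7 d) and Wy-14643 (Wy, 60 mg/kg/d, 3 d). Methylcellulose set 2 (14 d) served cefuroxime (CFX, 250 mg/kg/d, 14 d) and nifedipine (Nif, 3 mg/kg/d, 14 d). Methylcellulose set 5 (14 d) served diethylstilbestrol (DES, 10 mg/kg/d, 3 d), ethionine (ETH, 200 mg/kg/d, 14 d) and piperonylbutoxide (PBO, 1200 mg/kg/d, 3 d), and methylcellulose set 6 (14 d) served phenobarbital (PB, 14 d, no dose in the labels). Corn oil set 3 (7 d) was the control of C.I. Direct Black (CIDB, 146 mg/kg/d, 7 d) and dimethylnitrosamine (DMN, 4 mg/kg/d, 7 d), and corn oil set 4 (14 d) that of cyproterone acetate (CPA, 100 mg/kg/d, 14 d). By these labels MPy, TAA, Wy, DES and PBO were compared with controls dosed for a longer time, although the study's methods describe time-matched controls, and by the labels compound and dosing time cannot be told apart for them. The study's methods name carboxymethyl cellulose as the vehicle of the 12 compounds whose controls the labels call methylcellulose. For the controls the methods name methylcellulose, and the study's overview of compounds gives it for AA, DES, DHEA, ETH, Mcarb and MPy. The methods also state that the treated animals used here were chosen among larger dose groups for histopathological change. The values thus describe selected animals.

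CIDB and DMN are genotoxic carcinogens (GC), CFX and Nif non-carcinogens (NC), and AA, DES, DHEA, ETH, Mcarb, MPy, PB and PBO non-genotoxic carcinogens (NGC), while CPA, TAA and Wy have no defined class. The median RFI of an animal over its 158 analytes ran from 0.425 to 0.882. Of the hepatocyte markers, HNF4A, a transcription factor of hepatocytes, was present in all 63 animals, with RFI between 1.07 and 2.93. None of the markers listed for bile duct, stellate, endothelial or immune cells was on the array, so their part in any value below was not tested. A change in whole liver lysate also cannot separate fewer cells of a type from less protein per cell.

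Of the 5 members, BAX varied least between animals of the same group. On the log2 scale its residual SD within groups was 0.197, the 21st smallest of 158 analytes, against 0.284 for MCL1, 0.288 for BCL2L1, 0.315 for AVEN and 0.317 for BIK. Among the 12 methylcellulose controls BAX RFI was between 0.512 and 0.745 (median 0.594), and among the 6 corn oil controls between 0.432 and 0.541 (median 0.488). The same controls held BCL2L1 between 0.889 and 1.90 in methylcellulose and between 0.427 and 1.26 in corn oil. AVEN was the dimmest of the members, with a median RFI of 0.133, the 14th lowest among all analytes, and MCL1 had the 36th lowest.

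BAX rose in both genotoxic groups. Its RFI was 1.39, 1.72 and 1.44 in the 3 CIDB animals and 0.655, 0.974 and 1.07 in the 3 DMN animals, against 0.432, 0.541 and 0.527 in corn oil set 3. No animal of either group overlapped the controls, and the CIDB animals were the 3 highest of all 63. The log2 fold change of BAX was 1.60 ± 0.17 (SE, n = 3, adjusted p = 1.9e-10, limma) for CIDB, a 3.04-fold rise, and 0.82 ± 0.17 (SE, n = 3, adjusted p = 8.0e-04, limma) for DMN, a 1.77-fold rise. Over all 158 analytes, 7.59% were called for CIDB and 1.27% for DMN at an adjusted p below 0.05, and BAX ranked 3rd and 4th from the top by fold change. CIDB was called for BAX under each of 12 alternative settings. DMN was called in 11 of 12, and in a fit of the 6 animals alone its adjusted p was 0.375 (limma).

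**Figure D1:**
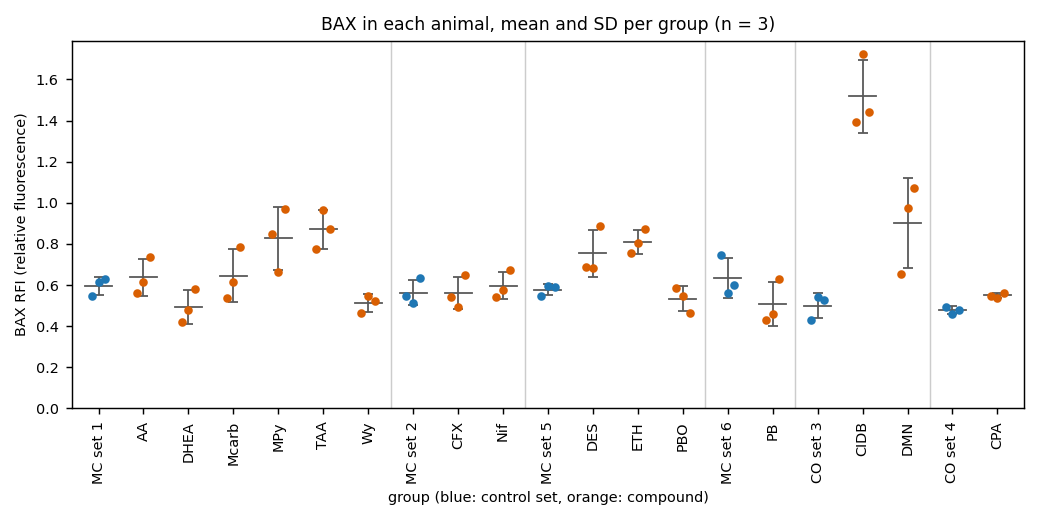
BAX RFI (vertical axis, linear from 0) in each of 63 animals, by group, with control sets in blue and compounds in orange, each set of compounds to the right of its labelled controls (MC, methylcellulose; CO, corn oil). Horizontal lines and bars are the mean and SD of 3 animals, and the 3 CIDB animals stand highest, at 1.39 to 1.72.

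In 5 further compounds all treated animals also had more BAX than every animal of their control set, without passing the test. TAA animals had BAX RFI of 0.773, 0.965 and 0.875 and MPy animals 0.849, 0.661 and 0.969, against 0.546, 0.616 and 0.627 in their shared control set. ETH animals had 0.756, 0.804 and 0.872 and DES animals 0.690, 0.685 and 0.888, against 0.547, 0.596 and 0.592 in theirs. The CPA animals, at 0.548, 0.537 and 0.563, were above their set as well, at 0.495, 0.460 and 0.481, but by a smaller margin. Log2 fold changes were 0.54 for TAA (adjusted p = 0.0536, limma), 0.46 for MPy (adjusted p = 0.310), 0.49 for ETH (adjusted p = 0.174), 0.37 for DES (adjusted p = 0.388) and 0.20 for CPA (adjusted p = 0.460). The share of all analytes called was 3.16% for TAA, 0% for MPy, 1.27% for ETH, 2.53% for DES and 5.06% for CPA.

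For TAA, MPy, ETH and DES these BAX values moved across the threshold with the processing. For CPA, BAX was called under none of 13 alternatives. After each animal was centred on its own median log2 RFI, BAX was called for TAA (log2 fold change 0.80, adjusted p = 1.4e-04, limma) and MPy (0.62, adjusted p = 0.0089). Against all 12 methylcellulose controls, it was called for TAA (adjusted p = 0.0045), MPy (adjusted p = 0.0282) and ETH (adjusted p = 0.0271). In the log2 ratios that the authors deposited as a series matrix, it was called for TAA (adjusted p = 5.0e-04), MPy (adjusted p = 0.0017) and DES (adjusted p = 0.0317). The matrix ratios of DES followed RFI ratios to methylcellulose set 2 more closely than ratios to its labelled set 5 (Spearman's rho over analytes 0.627 against 0.443), while those of TAA and MPy followed their labelled set best. Across all 158 analytes the median log2 fold change was -0.16 for TAA and -0.15 for MPy as deposited, and BAX ranked 3rd and 4th from the top there, so it stood above most analytes of the same animals. For TAA the call also appeared when TAA animal 1 (RFI 0.773) was left out, with adjusted p values of 0.0409 to 0.417 (limma) over the animals left out in turn.

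BAX was not called in the other compounds. Its log2 fold changes were between -0.33 for PB and 0.10 for Mcarb in AA, CFX, DHEA, Mcarb, Nif, PB, PBO and Wy, and none was called under any alternative. PB, DHEA and Wy had the lowest values, with BAX RFI of 0.432, 0.462 and 0.628 for PB, 0.421, 0.479 and 0.583 for DHEA and 0.464, 0.549 and 0.522 for Wy. In each of these compounds at least 1 animal lay within its control range. The percentages of all analytes called were 0% for AA, CFX, Mcarb and Nif, 6.33% for DHEA and PBO, 5.06% for PB and 8.86% for Wy.

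**Figure D2:**
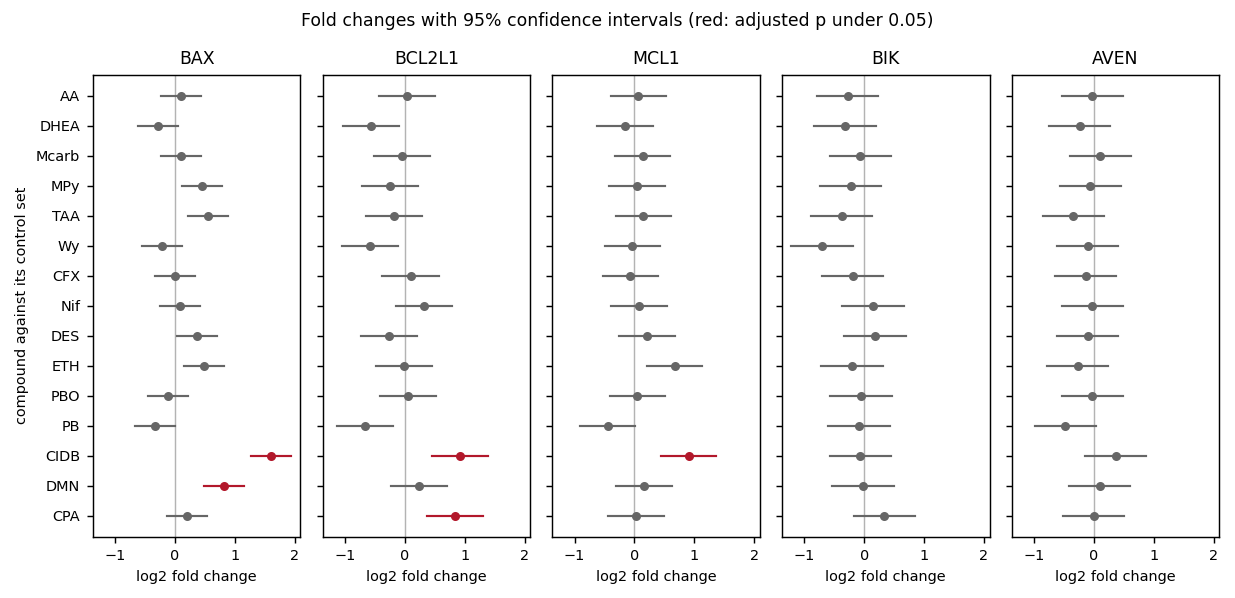
Log2 fold change of each member (points, horizontal axis) with its 95% confidence interval (lines) for each compound against its control set, from the fit of all 63 animals. Red marks the 5 of 75 comparisons called at an adjusted p below 0.05, which were BAX for CIDB and DMN, BCL2L1 for CIDB and CPA, and MCL1 for CIDB.

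The survival proteins rose with BAX in CIDB. BCL2L1 RFI was 1.64, 2.15 and 1.70 in the CIDB animals and 0.751, 1.26 and 0.937 in corn oil set 3. MCL1 RFI was 0.420, 0.455 and 0.459 in the CIDB animals and 0.184, 0.234 and 0.308 in that set. All 3 treated animals exceeded all 3 controls for both proteins. The log2 fold change was 0.92 ± 0.23 (SE, n = 3) for BCL2L1 and 0.91 ± 0.23 (SE, n = 3) for MCL1, each with an adjusted p of 0.0042 (limma), while BAX rose by 1.60 in the same animals. Both calls were lost when corn oil set 3 animal 4, the lowest of its set for both proteins, was left out (adjusted p = 0.0754 and 0.0759, limma), and that for BCL2L1 also without CIDB animal 2.

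HNF4A and GLUL, glutamine synthetase of hepatocytes around the central vein, were lower in the same CIDB animals, while the CYP2E1 analytes, another pericentral enzyme, were not called. HNF4A fell by 0.54 on the log2 scale (adjusted p = 0.0382, limma) and GLUL was at -3.89 (adjusted p = 1.7e-04), while CYP2E1_1 was at -0.21 (adjusted p = 0.904) and CYP2E1_2 at 0.23 (adjusted p = 0.867). In the 3 TAA animals GLUL RFI was -1.86, -0.75 and 0.0615, and values at or below 0 were dropped, so that its fitted log2 fold change of -4.00 (adjusted p = 0.0353) rests on 1 animal. For DMN neither HNF4A (-0.05, adjusted p = 0.995) nor GLUL (-1.97, adjusted p = 0.554, with 1 of 3 animals dropped) was called. GLUL was also called lower in Wy (-3.73, adjusted p = 0.0015, with 1 of 3 animals dropped) and in DES (-2.77, adjusted p = 0.0217), and HNF4A in PB (-0.59, adjusted p = 0.0350). No CYP2E1 analyte was called for any compound. The part of these hepatocyte markers in the changes of the BCL2 family was not tested.

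CPA was the other compound with a called survival protein. BCL2L1 RFI was 1.29, 1.30 and 1.30 in the CPA animals and 1.03, 0.862 and 0.427 in corn oil set 4. The treated animals were close together and above all 3 controls, of which animal 3 was the lowest of the 63 for this protein. The log2 fold change was 0.84 ± 0.23 (SE, n = 3, adjusted p = 0.0199, limma), and 0.46 with an adjusted p of 0.528 when animal 3 of the control set was left out. The call was also lost against all 6 corn oil controls (0.64, adjusted p = 0.0534), in the series matrix (0.72, adjusted p = 0.0611), in the fit of the 6 animals alone (adjusted p = 0.476) and without any of the CPA animals, and held in 6 of 13 alternatives. MCL1 in CPA, at 0.211, 0.214 and 0.263, overlapped its controls (log2 fold change 0.03).

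MCL1 in the ETH animals was 0.338, 0.316 and 0.437, against 0.216, 0.248 and 0.217 in methylcellulose set 5. All 3 ETH animals lay above the set, and the log2 fold change was 0.67 ± 0.23 (SE, n = 3, adjusted p = 0.174, limma). It was called after centring (0.59, adjusted p = 0.0361) and against all 12 methylcellulose controls (0.58, adjusted p = 0.0441). In the other 13 compounds MCL1 had log2 fold changes between -0.45 for PB and 0.21 for DES and was not called, DMN being at 0.16. All 3 PB animals, at 0.171, 0.195 and 0.221, lay below their controls, at 0.353, 0.234 and 0.227. For PB the log2 fold change was -1.88 in the series matrix (adjusted p = 0.0536, limma) and -0.04 after centring (adjusted p = 0.929).

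BCL2L1 had its lowest fold changes in Wy, DHEA and PB, none of which passed the test. In Wy its RFI was 0.70, 0.651 and 0.833 and in DHEA 0.535, 0.840 and 0.879, all below the 1.06, 1.23 and 0.972 of set 1. In PB it was 0.799, 0.779 and 1.03, against 1.90, 1.33 and 1.01 in set 6, where control animal 1 was high and animal 3 within the PB range. Log2 fold changes were -0.58 for Wy (adjusted p = 0.127, limma), -0.56 for DHEA (adjusted p = 0.144) and -0.67 for PB (adjusted p = 0.0665). Wy and DHEA were called against all 12 methylcellulose controls (adjusted p = 0.0076 and 0.0117), Wy also in the fit of the 6 animals alone (adjusted p = 0.0323), and PB without control animal 3 of its set (adjusted p = 0.0213). In PB the median over all analytes was -0.29, and after centring BCL2L1 was at -0.26 (adjusted p = 0.416). In the other 10 compounds BCL2L1 was between -0.26 for DES and 0.33 for Nif, DMN being at 0.23, and was not called.

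BIK and AVEN were called for no compound. BIK was lowest in Wy, with RFI of 0.747, 1.34 and 1.32 against 1.54, 2.22 and 1.67 in set 1, and no animal of the groups overlapped. Its log2 fold change was -0.70 ± 0.25 (SE, n = 3, adjusted p = 0.0810, limma), called after centring (-0.61, adjusted p = 0.0448) and against all 12 methylcellulose controls (-0.72, adjusted p = 0.0076). In DHEA all BIK animals, at 1.49, 1.29 and 1.53, were also below set 1 (-0.32, adjusted p = 0.640), and in the other 13 compounds BIK was between -0.37 for TAA and 0.34 for CPA. AVEN had log2 fold changes between -0.48 for PB and 0.37 for CIDB and was called under no alternative. In CIDB, where the AVEN RFI was 0.151, 0.159 and 0.145 against 0.123, 0.135 and 0.0971, and in PB and TAA, where the treated animals were lower, the groups did not overlap.

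**Figure D3:**
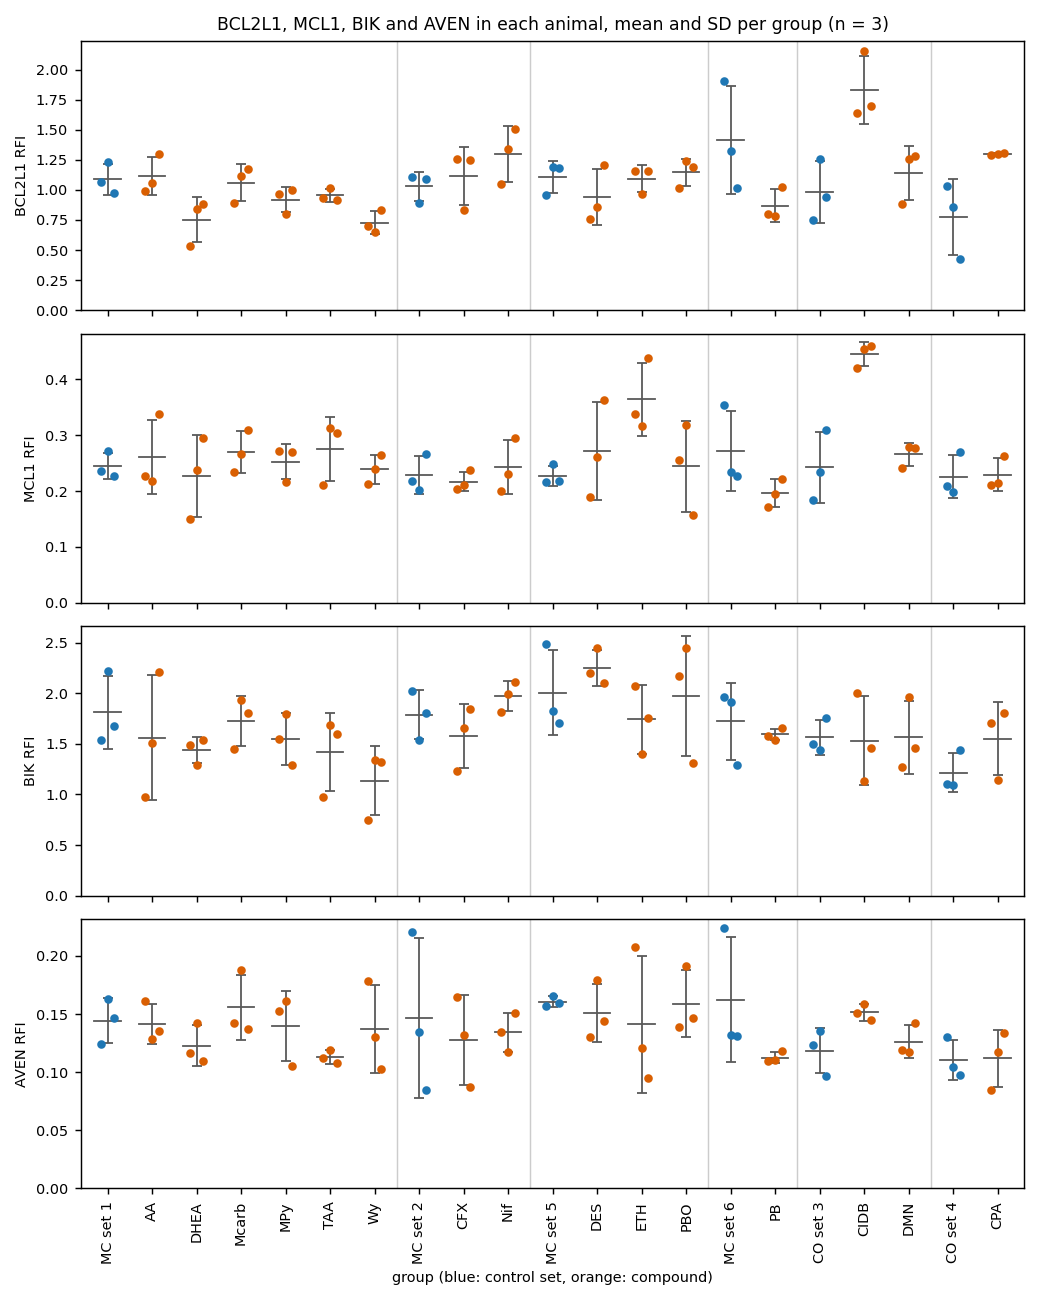
RFI of BCL2L1, MCL1, BIK and AVEN (vertical axes, linear from 0) in each of 63 animals, with control sets in blue and compounds in orange and the mean and SD of 3 animals in grey. BCL2L1 and MCL1 are highest in CIDB, the lowest BCL2L1 value is the corn oil set 4 control at 0.427, and the BIK animals of Wy and DHEA lie below all their controls.

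Counted over all compounds, the treated animals of a compound lay wholly outside the range of their 3 controls in 19 of 75 member comparisons, 12 higher and 7 lower, and 7 of the 12 were BAX. For all 2370 comparisons of analytes and compounds the share was 16.3%. AA, CFX, Mcarb, Nif and PBO had no member outside the control range.

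The balance of BAX to its inhibitors was taken within each animal as the log2 ratio of BAX RFI to BCL2L1 RFI and to MCL1 RFI. A factor common to all analytes of an animal, such as the amount of protein spotted, cancels in this ratio. The zero of the ratio has no meaning, since it depends on the antibodies, and only differences between groups were read. BAX to BCL2L1 was higher in all 3 treated animals than in all 3 controls for CIDB, DES, DMN, ETH, MPy and TAA, and lower for CPA. BAX to MCL1 was higher in the same sense for CIDB, DMN, MPy and TAA. These were 11 of 30 balances, against 19.9% of the ratios of all analyte pairs over the 15 compounds.

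The 6 shifts of BAX to BCL2L1 were of similar size. The log2 ratio was between -0.28 and -0.07 in the TAA animals and between -0.27 and -0.04 in the MPy animals, and between -0.995 and -0.63 in set 1. The differences of the means were 0.72 (1.65-fold) for TAA and 0.70 (1.62-fold) for MPy. They were 0.68 for CIDB, 0.63 for DES, 0.59 for DMN and 0.50 for ETH, and the ranges obtained by leaving out each animal overlapped among most of the 6. In CIDB the 3.04-fold rise of BAX went with a 1.60-fold shift of the balance, as BCL2L1 rose too. In TAA, MPy and DES, BCL2L1 itself was at -0.18, -0.24 and -0.26, none of them called. Every one of these differences had an exact permutation p of 0.1 (two-sided), the smallest that 3 against 3 animals can give (adjusted p = 0.273 over 30 tests).

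Against all controls of the vehicle the design can reach smaller p values, but the test takes animals of separate control sets as exchangeable. Differences between sets are thus not allowed for, and DES, MPy, TAA and Wy were dosed for a shorter time than the methylcellulose controls. For methylcellulose, 12 controls had BAX to BCL2L1 between -1.35 and -0.63, and all 3 animals of DES, ETH, MPy and TAA lay above them (exact permutation p = 0.0044, the smallest possible, adjusted p = 0.0220 over 30 tests). Wy, where BCL2L1 and BIK were low and BAX was not raised, was 0.44 above the controls by its mean, with overlap (exact permutation p = 0.0088, adjusted p = 0.0377). Among the 6 corn oil controls the ratio ran from -1.22 to 0.17, the upper end being the animal of set 4 with the low BCL2L1, and CIDB (exact permutation p = 0.0952) and DMN (exact permutation p = 0.238) lay within that range. The CPA animals, at -1.27 to -1.21, were at its lower end, 0.47 below the mean (exact permutation p = 0.0476, adjusted p = 0.119). The difference for CPA was -0.64 against its own set and ranged from -0.87 to -0.25 as animals were left out in turn.

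BAX to MCL1 gave a shorter list. The differences from the own control set were 0.69 for CIDB, 0.66 for DMN, 0.42 for MPy and 0.39 for TAA, and every treated animal was also above all controls of its vehicle. Against those controls the exact permutation p was 0.0044 (adjusted p = 0.0220) for MPy and TAA with 12 controls, and 0.0238 (adjusted p = 0.0794) for CIDB and DMN with 6 controls, the smallest possible in each case. The limits of pooled control sets apply here too. In ETH, where MCL1 was high, the difference was -0.18, with overlap. In DES it was 0.16, with overlap, since MCL1 ranged from 0.190 to 0.363 among its 3 animals. The series matrix turned the sign of the BAX to MCL1 difference for CIDB (-0.11), DMN (-0.05) and TAA (-0.20), while MPy stayed at 0.32. MCL1 varied more in that matrix, with a residual SD of 0.721 against 0.284 for log2 RFI. The BAX to BCL2L1 differences of the matrix were 0.80 for CIDB, 0.56 for DES, 0.68 for DMN, 0.51 for ETH, 0.76 for MPy, 0.82 for TAA and -0.65 for CPA.

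**Figure D4:**
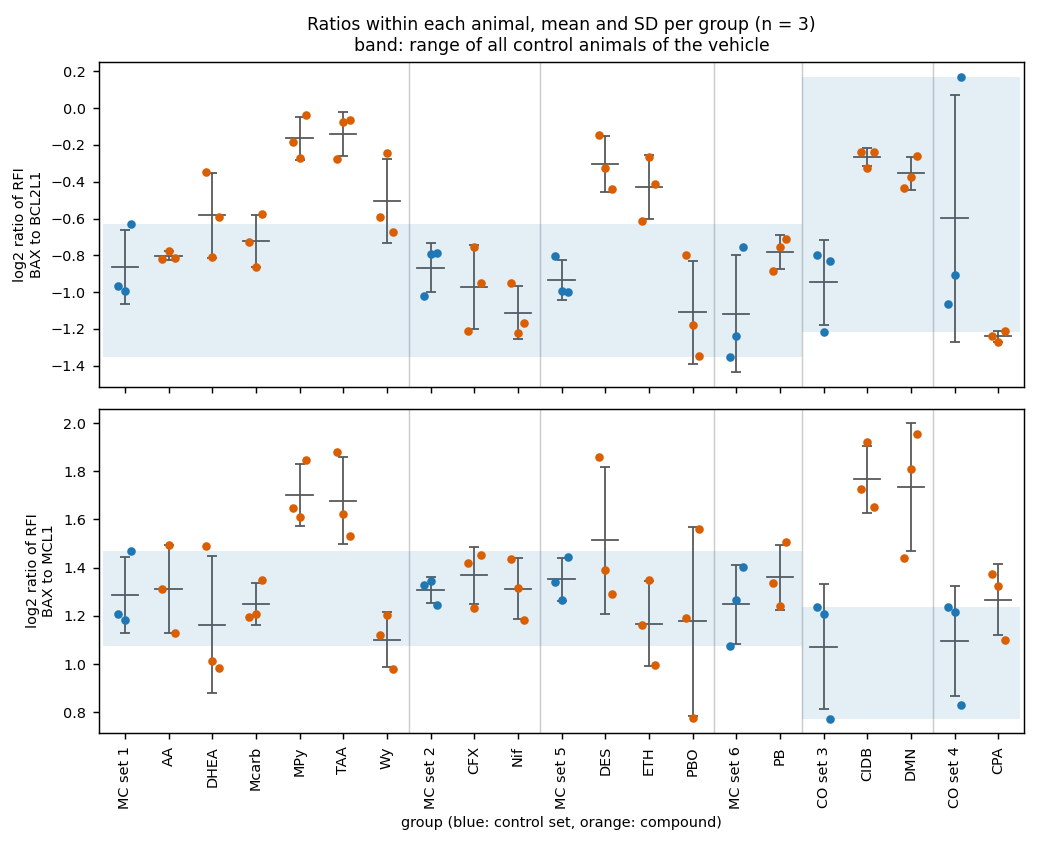
Log2 ratio of RFI within each animal (vertical axes) of BAX to BCL2L1 above and BAX to MCL1 below, by group, with the mean and SD of 3 animals, and a band for the range of all control animals of the vehicle. MPy, TAA, DES and ETH lie above the methylcellulose band for BAX to BCL2L1, and CIDB, DMN, MPy and TAA above their bands for BAX to MCL1.

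Only compounds with the same control set and dosing time were set side by side, at doses that differ. There were 7 such pairs, and each gives the values of the compounds as dosed. DMN (4 mg/kg/d) had less BAX than CIDB (146 mg/kg/d) by 0.78 on the log2 scale (95% confidence interval of the difference -1.11 to -0.44, adjusted p = 7.9e-04, limma), where 3.16% of analytes were called. The call was lost without DMN animal 1, the lowest of its group (-0.56, adjusted p = 0.0599), and in the fit of the 6 animals alone (adjusted p = 0.141). BCL2L1 was lower in DMN than in CIDB by 0.69 (adjusted p = 0.108, limma) and MCL1 by 0.74 (adjusted p = 0.0585), without overlap of the animals, and both were called after centring (adjusted p = 0.0154 and 0.0033). PBO had less BAX than DES by 0.50 (adjusted p = 0.0917, limma), called after centring (adjusted p = 0.0109) and in the series matrix (adjusted p = 1.6e-04), where 3.8% of analytes were called with the RFI. TAA and MPy differed in BAX by 0.09 (95% confidence interval of the difference -0.25 to 0.42) and no analyte was called (0%). No member was called between Nif and CFX (0%), DHEA and AA (2.53%), Mcarb and AA (0%) or Mcarb and DHEA (6.33% of all analytes). The widest differences there were those of BCL2L1, at -0.59 for DHEA minus AA (95% confidence interval -1.06 to -0.12) and 0.52 for Mcarb minus DHEA (95% confidence interval 0.05 to 0.99), and the other members lay between -0.37 and 0.38.

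By class, BAX was the one member called between genotoxic and non-genotoxic carcinogens. The compound means of log2 BAX ratios averaged 1.21 over the 2 GCs, 0.10 over the 8 NGCs (from -0.33 to 0.49) and 0.04 over the 2 NCs. NGC minus GC was -1.12 ± 0.25 (SE, adjusted p = 0.0382, limma), among 1.9% of analytes called. Leaving out CIDB, so that DMN alone stood for the GCs, gave a difference of -0.73, and leaving out DMN gave -1.51. Either fit takes the spread of the GCs from the other classes, so only the difference is given. The call was lost without AA, CFX, Mcarb, Nif or PBO and in the series matrix (adjusted p = 0.0642, limma). BCL2L1 differed by -0.79 (adjusted p = 0.0978) and MCL1 by -0.46 (adjusted p = 0.662). Both GCs were given in corn oil for 7 d and share a control set, and no NGC was given in corn oil, so class and vehicle cannot be told apart. Compounds that share a control set also share its error. The class fits took them as independent, so their SE and p values can be too small. No member was called for NGC minus NC or for all 10 carcinogens minus NC, where 0.633% of analytes were called in each.

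Between controls of the different vehicles BCL2L1 was the one member called. Many other analytes also differed there, so the difference is not particular to the family. In corn oil BCL2L1 was lower than in methylcellulose by 0.45 on the log2 scale (adjusted p = 0.0344, limma), among 15.2% of analytes called, and after centring it was no longer called. BAX (-0.28, adjusted p = 0.0572), AVEN (-0.39, adjusted p = 0.0697) and BIK (-0.40, adjusted p = 0.0697) had differences of the same sign, and MCL1 was at -0.06. Between sets of the same vehicle no member was called, where 0.633% of analytes were called for methylcellulose set 6 against set 5 and 0% for the other pairs of sets.

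Of the other apoptosis and DNA damage proteins listed beside the family, JUN, MAPK8, AKT1 and NFKBIA were described, the last 3 each as total protein and in a phosphorylated form. No caspase was on the array. Where a BCL2 family member was called, JUN was the one among these that passed. JUN, a stress-induced transcription factor, rose by 1.54 ± 0.23 on the log2 scale in CIDB (SE, n = 3, adjusted p = 1.5e-06, limma) and was at 0.20 in DMN (adjusted p = 0.995), and DMN minus CIDB was -1.34 (adjusted p = 3.2e-05). Outside those compounds MAPK8, the stress kinase JNK1, fell by 0.78 in DHEA (adjusted p = 0.0056) and by 0.86 in Wy (adjusted p = 0.0015), and its phosphorylated form was lower in both as well. Neither form of AKT1 or NFKBIA passed for any compound.

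Over the 15 compounds the log2 fold changes of BAX and MCL1 correlated with r = 0.84 (0.84 after centring, 0.68 without CIDB), and those of BAX and BCL2L1 with r = 0.64 (0.41 without CIDB). AVEN had r = 0.72 to BCL2L1 (0.58 without CIDB), 0.61 to BAX (0.28 without CIDB) and 0.57 to MCL1 (0.26 without CIDB). BCL2L1 and MCL1 had r = 0.60 (0.36 without CIDB). BIK had r = 0.20 to BAX, 0.11 to MCL1, 0.29 to AVEN and 0.59 to BCL2L1 (0.25 after centring). Compounds that share a control set share its error in these correlations, which are given as a description. Among all 158 analytes MCL1 was the most like BAX, followed by STAT3 (r = 0.84) and HIST1H3A (r = 0.82), and after centring ATMIN_P-S/T (r = 0.85) came first. BCL2L1 was most like MTOR (r = 0.85), SOCS3 (r = 0.84) and the phosphorylated ATMIN_P-S/T (r = 0.80, but 0.39 after centring, when HIST1H3A came first with 0.76), and MCL1, after BAX, like STAT3_P-Y705 (r = 0.79) and ATMIN_P-S/T (r = 0.77). BIK was most like RPS6_1 (r = 0.85), PTK2_P-Y576/Y577 (r = 0.83) and MET_P-Y1349 (r = 0.83), and AVEN like HIST1H3A (r = 0.82), CDKN1B_P-T187 (r = 0.79) and STAT3_P-Y705 (r = 0.77).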

How the data were processed

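Liver lysates of 63 rats were measured on ZeptoMARK reverse-phase protein arrays. The authors deposited for each animal the RFI of 158 analytes as an intensity on a linear scale. Per the study's methods, lysates were adjusted to a single protein concentration, the local background of each spot was removed, signals were normalized within the array, and replicate spots gave a weighted mean. A series matrix that the authors deposited beside it, with log2 ratios to the median of control animals and imputed values, served as an alternative. The methods name the corresponding control group as its reference. For 9 of 15 compounds the matrix followed RFI ratios to the labelled set best, and for 6 (CFX, DES, ETH, Nif, PB and PBO) those to another methylcellulose set. After centring of each animal, RFI and matrix values of the 45 treated animals correlated for the same member with Spearman's rho of 0.913 for BAX, 0.857 for BCL2L1, 0.717 for MCL1, 0.947 for BIK and 0.827 for AVEN (0.380 to 0.787 without centring). 0 matrix columns lacked a sample.

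RFI was log2 transformed, with values at or below 0, 25 of 9954 and none of a member, set to missing. No scaling between animals was added. Means of 21 groups were fitted over all 63 animals with limma 3.58.1 (R 4.3.3, lmFit and eBayes, 42 residual degrees of freedom), each compound was compared with the control set of its label, and p-values were adjusted for 158 analytes per comparison (Benjamini-Hochberg). Calls were made at adjusted p-values below 0.05. Classes were compared with limma on compound means. Balances were tested per compound by a two-sided exact permutation test, adjusted over 30 tests. The fits were tested on simulated data. Alternatives were centring, all controls of the vehicle, the series matrix, a fit of the 6 animals alone, trend and robust shrinkage, a filter on dim analytes, a replicate block, and each animal left out. Members are given by value or range in every comparison of compounds with controls, other listed apoptosis proteins where they were called beside a member, and the 3 analytes most like each member. One listed protein is not reported here. Members, although matched by name, and lists were chosen with earlier results of these data known. Same-numbered animals deviated together (correlation over 0.1 for each number) for CPA and its set, Nif and CFX, DHEA and AA, Mcarb and AA, and PBO and DES. RFI has no counts or depth, and 3 animals per group limit the precision.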

Additional observations from a re-analysis of the deposited data

Results flagged for a closer look

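BAX rose with both genotoxic carcinogens but not to the same extent. DMN minus CIDB was -0.78 on the log2 scale against the same corn oil set (adjusted p = 7.9e-04, limma), a difference between the compounds tested in the fit of all 63 animals. The DMN animals, at 0.655, 0.974 and 1.07, were all below the CIDB animals, at 1.39 to 1.72. Doses differed, and the difference was not tested at matched dose.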

How the results depend on the processing

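Of 75 member comparisons, 5 were called in the main analysis, 9 after centring (8 higher, 1 lower) and 11 against all controls of the vehicle (8 higher, 3 lower). Over all 158 analytes and 15 compounds the called shares were 3.16%, 3.92% and 4.98%. Per compound, centring gave 1 called member in ETH, MPy, TAA and Wy, where the main analysis had 0. All controls of the vehicle gave 1 in DHEA, MPy and TAA, 2 in ETH and Wy, and 0 in CPA, which had 1. The series matrix gave 1 in DES, MPy and TAA and 0 in CPA. The fit of the 6 animals alone gave 0 in CPA and DMN and 1 in Wy, and the filter on dim analytes, which drops MCL1 and AVEN, gave 1 in TAA. In the pairs, centring gave 3 in DMN against CIDB, which had 1, and 1 in PBO against DES, which the series matrix also gave. Between control sets, centring gave 0 members where 1 had been called. For NGC minus GC, centring and all controls of the vehicle each gave 2, and the series matrix 0, where 1 had been called. With animals left out in turn, called members ran from 1 to 3 in CIDB (1 without corn oil set 3 animal 4), from 0 to 1 in CPA, PB and TAA, and from 0 to 1 in DMN against CIDB. With NGC or NC compounds left out in turn, NGC minus GC ran from 0 to 1. With the replicate block, 1 member was called in CPA (BCL2L1, adjusted p = 0.0128, limma), 1 in DMN against CIDB and 0 in PB and the other pairs, as without it. No member fold change called in the main analysis changed sign under these alternatives, while the BAX to MCL1 difference of TAA, which passed against all controls of the vehicle, was -0.20 in the series matrix, and 140 of 1286 member values under alternatives, uncalled on both sides, had the other sign. The cause of these shifts was not tested. With 3 animals a group, balances could not pass the threshold against their own sets, and dim signals limit MCL1 and AVEN.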

Other observations

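The number in an animal's title went with the level of 3 members. Among the 3 animals of a compound, the animal numbered 3 was the highest in 11 of 15 compounds for BAX, 11 of 15 for BCL2L1 and 11 of 15 for MCL1, and the animal numbered 1 was the lowest in 10, 9 and 11 of 15. After centring on the animal median, number 3 was highest in 8 of 15 for each of these members and number 1 lowest in 9, 8 and 10. For BIK, number 3 was highest in 6 of 15 and number 1 lowest in 7 of 15, and for AVEN the counts were 4 and 4, while number 3 was the lowest for AVEN in 8 of 15 (9 after centring), opposite to the other 3. What the numbers stand for was not determined here.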
